A study of Mus musculus with 4 samples.

Results

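Mitochondrial ribosomal protein genes, which encode the protein part of the ribosome inside mitochondria, were examined in single-nucleus RNA sequencing (snRNA-seq) of cardiomyocytes from neonatal mouse hearts. The members were the genes of the count matrix whose symbols begin with Mrpl or Mrps followed by a number, with pseudogene names left out. This gave 78 of 22574 genes, 49 for the large subunit (Mrpl) and 29 for the small subunit (Mrps). The subunit was read from the symbol alone, which need not be where the protein sits. Counting Mrps30 and Mrps18a with the large subunit was tried as an alternative. The study compared pups carrying floxed Nrf1 alleles together with the aMHC-Cre transgene, labelled KO, with Nrf1 fl/fl pups lacking Cre, labelled WT, both described as C57BL/6 in the protocol. The transgene uses the alpha myosin heavy chain promoter, so recombination is directed to cardiomyocytes, and every library, WT included, came from mice with floxed alleles. At postnatal day 3 the pups had either Sham surgery or a myocardial infarction (MI), made by tying off a main coronary artery of the left ventricle, and ventricular tissue was collected 1 day later. Each of the 4 libraries (WT-Sham, KO-Sham, WT-MI and KO-MI) was a pool of 4 to 6 hearts, so there was 1 library per group, no test was possible, and all intervals given are 95% intervals that cover counting error only.

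The mitochondrial ribosome translates the few messages of the mitochondrial genome, all of which encode subunits of the oxidative phosphorylation complexes. Its proteins are encoded in the nucleus, made in the cytosol and imported, and are assembled on ribosomal RNAs that come from the mitochondrial genome itself. Cardiomyocytes depend on this system because their contraction is fuelled mainly by oxidative phosphorylation, which expands around birth. The gene called Nrf1 in the study is Nfe2l1 (nuclear factor erythroid 2-like 1), a regulator of proteasome and antioxidant genes. It is not nuclear respiratory factor 1, whose gene symbol is Nrf1 and which is a known activator of mitochondrial genes, including several of the ribosome.

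The 4 libraries held 8585 nuclei, 1406 in WT-Sham, 3328 in KO-Sham, 2003 in WT-MI and 1848 in KO-MI, with 4984625 to 9106522 unique molecular identifiers (UMIs, each counting 1 captured RNA molecule) per library. The library labelled KO-Sham was the shallowest per nucleus, with a median of 2572 UMIs against 3554 to 3959 in the others, and had the highest median share of UMIs from the mitochondrial genome, 8.98% against 5.29% to 6.58%. Pairs of libraries shared 0 to 2 cell barcodes. All 13 cardiomyocyte markers were detected in every library, with a summed level of 41616 to 51612 CPM (the UMIs of a gene scaled to the same total in each library). The 11 myeloid markers summed to 115, 90, 540 and 270 CPM and the 5 red blood cell markers to 3296, 2318, 4519 and 2123 in WT-Sham, KO-Sham, WT-MI and KO-MI, with none at 0 in any library. The 7 endothelial markers summed to 576, 877, 535 and 597 CPM and the 7 fibroblast markers to 1162, 1002, 973 and 996. The targeted gene Nfe2l1 stood at 62.2 and 50.5 CPM in WT-Sham and KO-Sham but at 47.4 and 55.3 in WT-MI and KO-MI, so after MI the order went against the labels. The study reports that the pups were genotyped from tail tissue when the hearts were collected. The floxed part of the gene is not given in the sources used here, and reads outside it would not report the deletion. For this reason KO and WT below stand only for the labels of the libraries.

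All 78 genes were detected in all 4 libraries. Their UMIs over the 4 libraries ran from 242 for Mrps2, which encodes a small subunit protein with a bacterial counterpart, to 5301 for Mrpl42, a large subunit protein found only in mitochondria, with a median of 1191. The filter of 20 or more UMIs over both libraries of a comparison therefore removed none of them. A nucleus held a median of 12 or 13 UMIs of the 78 genes together, so the genes were compared as sums over nuclei and not nucleus by nucleus. Levels are CPM of the library or population and are not scaled to gene length, so they are compared between libraries and not between genes.

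The genes lie on 17 chromosomes and are short, with a median length of 7900 bp against 24020 bp over all protein-coding genes in the matrix. Of the 78, 18 (23.1%) have a protein-coding gene starting within 1000 bp on the opposite strand in the other direction, against 8.38% of 16948 protein-coding genes. Mrpl32, for example, shares its start region with the proteasome gene Psma2, and Mrpl46 and Mrps11, which encode proteins of different subunits, overlap head to head. Another annotated gene overlaps 42 of the members, 13 of them on the same strand, and their counts are uncertain to that extent, since no strand setting is stated. Among the members named in the text, Mrpl33, Mrpl46, Mrpl51, Mrps18c, Mrps24 and Mrps28 have a gene on the same strand, and Mrpl12, Mrpl14, Mrpl17, Mrpl19, Mrpl40, Mrpl44, Mrpl58, Mrps11, Mrps18a and Mrps18b have one on the other strand only. Promoter sequences (250 bases before to 50 bases after the start, RefSeq, GRCm38.p6) were at hand for 69 of the 78. The motif of nuclear respiratory factor 1 (GCGCA, any base, then GCGC, searched on both strands) was in 13 of the 69 promoters (18.8%), against 5.19% of 27025 promoters of all genes and 9.16% of 13171 protein-coding ones. The ETS core ACTTCCG, which GA-binding protein can bind, was in 17 (24.6%) against 7.20% and 11.8%. The antioxidant response element core TGACNNNGC, of the kind bound by Nfe2l1 and Nfe2l2, was in 14 (20.3%) against 13.99% and 16.4%. Promoters with a match are shown for 4 genes at the ends of the comparisons described below, with the match in capitals. Mrpl32 had one of the highest ratios of KO-Sham over WT-Sham and Mrpl14 the lowest ratio of MI over Sham in WT, and both hold the nuclear respiratory factor 1 motif. Mrpl34 had the next lowest ratio of MI over Sham in both genotypes and Mrps10 the lowest ratio of KO-Sham over WT-Sham, and both hold the antioxidant response element core.
Mrpl32, chr13:14612988-14613287, minus strand: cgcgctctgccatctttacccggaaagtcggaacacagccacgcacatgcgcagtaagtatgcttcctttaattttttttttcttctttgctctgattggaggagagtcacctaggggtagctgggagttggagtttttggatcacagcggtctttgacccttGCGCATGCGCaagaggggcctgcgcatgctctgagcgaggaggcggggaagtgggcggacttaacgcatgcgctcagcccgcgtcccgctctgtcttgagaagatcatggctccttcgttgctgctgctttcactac
Mrpl14, chr17:45686099-45686398, plus strand: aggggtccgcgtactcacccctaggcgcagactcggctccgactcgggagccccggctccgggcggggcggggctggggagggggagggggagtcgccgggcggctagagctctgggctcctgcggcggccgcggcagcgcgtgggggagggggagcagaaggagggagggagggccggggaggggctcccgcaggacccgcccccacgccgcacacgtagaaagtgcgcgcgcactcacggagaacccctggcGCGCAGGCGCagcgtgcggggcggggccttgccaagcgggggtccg
Mrpl34, chr8:71464676-71464975, plus strand: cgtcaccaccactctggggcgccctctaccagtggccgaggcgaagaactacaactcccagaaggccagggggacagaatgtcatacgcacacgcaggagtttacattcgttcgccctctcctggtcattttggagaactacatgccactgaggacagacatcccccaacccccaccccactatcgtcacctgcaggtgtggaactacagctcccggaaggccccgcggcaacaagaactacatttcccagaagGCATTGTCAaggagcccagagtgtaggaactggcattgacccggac
Mrps10, chr17:47368947-47369246, plus strand: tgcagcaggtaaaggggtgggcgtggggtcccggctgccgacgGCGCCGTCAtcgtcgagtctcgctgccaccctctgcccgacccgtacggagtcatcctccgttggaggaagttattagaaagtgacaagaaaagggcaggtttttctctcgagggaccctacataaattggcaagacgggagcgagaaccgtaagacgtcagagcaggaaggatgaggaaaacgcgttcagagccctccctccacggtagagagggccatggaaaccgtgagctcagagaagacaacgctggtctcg
A match is a description of the letters and not evidence of binding. In KO-Sham over WT-Sham the median log2 ratio was 0.40 for the 14 members with the antioxidant core and 0.40 for the 55 without, and 0.41 for the 13 members with the nuclear respiratory factor 1 motif and 0.40 for the 56 without. For the ETS core it was 0.32 for the 17 with and 0.46 for the 52 without.

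Summed over all nuclei, both subunits were highest in the library labelled KO-Sham and lowest in WT-MI. The large subunit genes summed to 2325 CPM (95% interval 2283 to 2368) in WT-Sham, 3110 in KO-Sham, 1963 in WT-MI and 2266 in KO-MI. The small subunit genes summed to 1371, 1703, 1177 and 1356 CPM in the same order, which is kept below wherever 4 values are given. By gene, 64 of the 78 were highest in KO-Sham and 50 were lowest in WT-MI, with the share of all genes not given here. The heat map of each gene by library shows this order as a KO-Sham column above the mean for most genes. The large subunit took 64.6% of the members' UMIs in KO-Sham (64.2% to 65.1%) and 62.5% to 62.9% in the other 3 libraries, whose intervals overlap each other but not that of KO-Sham.

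**Figure D1:**
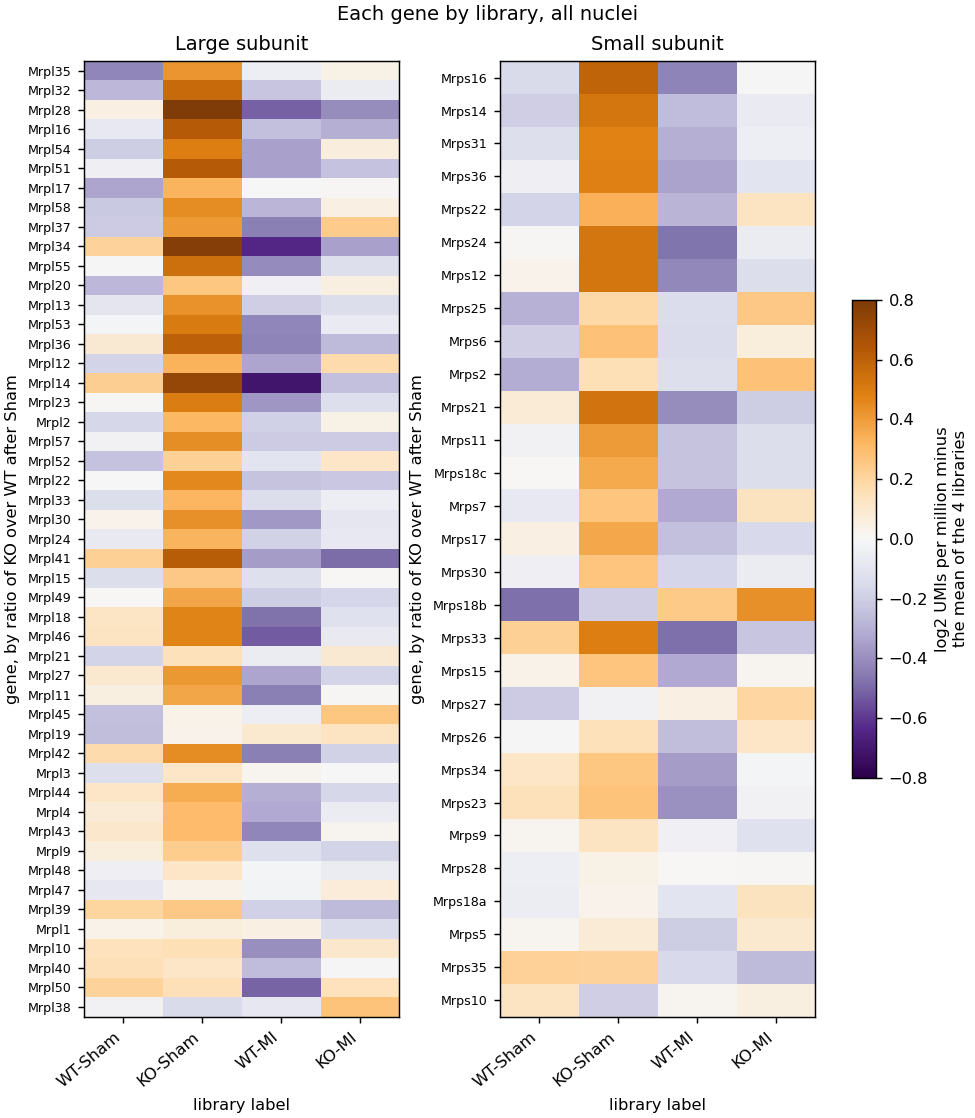
Level of each of the 78 genes in the 4 libraries (columns), as log2 CPM minus the mean of the 4 libraries (colour), with genes (rows) in order of their ratio of KO-Sham over WT-Sham. KO-Sham is the highest library for 64 genes, with the share of all genes not given here. KO-MI is the highest for 10, Mrps18b among them.

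The first comparison asks how the Nfe2l1 deletion label goes with these genes in uninjured hearts. The large subunit was higher in KO-Sham than in WT-Sham by 0.42 on the log2 scale (0.39 to 0.45), or 33.8%, and the small subunit by 0.31 (0.27 to 0.35), or 24.2%. Of the 78 genes, 73 had a ratio above 0, with a median of 0.38 and quartiles of 0.20 and 0.51, while over all 13370 genes with 20 or more UMIs the median was -0.09 and 38.5% were above 0. The interval lay above 0 for 49 members (9.36% of all genes) and below 0 for 1 (19.4% of all genes). Past a fold of 1.5, 12 members were higher (5.74% of all genes) and 0 lower (5.61% of all genes). The same count of higher members was 23 with TMM scaling and 27 in CM1 nuclei alone. The share of all genes under these settings, which can differ from 5.74%, is not given here.

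Mrpl35, a large subunit protein with a bacterial counterpart, had the highest ratio, with 21.7, 39.0, 28.2 and 29.9 CPM and a log2 ratio of 0.85 (0.53 to 1.17). WT-Sham was the low library for this gene, and the 2 MI libraries lay between the 2 Sham libraries. Mrpl32, whose protein is matured by a protease of the mitochondrial inner membrane before it joins the ribosome, stood at 27.1, 48.4, 27.9 and 31.4, a ratio of 0.84 (0.56 to 1.13). Mrpl28 stood at 41.3, 73.0, 28.0 and 30.3, a ratio of 0.82 (0.59 to 1.05). For Mrpl32 and Mrpl28 only KO-Sham stood apart in the upper direction. Also past the fold were Mrpl51 at 0.67 (0.52 to 0.82) and Mrpl37 at 0.61 (0.22 to 1.02), both large subunit proteins without a bacterial counterpart. The remaining 7, Mrps16, Mrps14, Mrpl16, Mrpl54, Mrpl17, Mrpl58 and Mrps31, were named after their values were seen and had ratios of 0.61 to 0.74. Mrpl58 among them is a peptidyl-tRNA hydrolase that releases stalled chains. The 5 members below 0 were Mrps10, Mrpl38, Mrpl50, Mrpl40 and Mrps35. Mrps10, a small subunit protein with a bacterial counterpart, was the only one whose interval lay below 0, with 44.9, 35.9, 41.7 and 42.7 CPM and a ratio of -0.32 (-0.57 to -0.07). Its KO-Sham value was the low one and the other 3 libraries were close to each other.

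Because KO-Sham was shallow and rich in mitochondrial UMIs, the summed level was taken within classes of both measures. The members' level went down with depth and up with the mitochondrial share over all nuclei of each library. The endothelial markers were also higher in KO-Sham than in WT-Sham over all nuclei. Fabp4 was the most counted of them and had the highest ratio, and Ptprb had the lowest. By population label, WT-Sham and KO-Sham stood at 450 and 820 CPM in CM1 and 382 and 654 in CM2. In CM4 they stood at 1659 and 1630 and in CM5 at 932 and 812. The part of these markers in the result was not tested. Among CM1 nuclei, the main cardiomyocyte population, KO-Sham was higher than WT-Sham in all 6 classes, by 0.39 (0.30 to 0.48) under 2500 UMIs, 0.35 (0.31 to 0.39) at 2500 to 4500 and 0.35 (0.28 to 0.42) above. By mitochondrial share the ratio in CM1 was 0.36 (0.28 to 0.44) under 5%, 0.42 (0.38 to 0.46) at 5 to 10% and 0.26 (0.18 to 0.34) above 10%. Over all nuclei, however, it was -0.01 (-0.06 to 0.05) under 2500 UMIs and -0.13 (-0.18 to -0.08) above 10%. In WT-Sham, 154 of the 313 nuclei under 2500 UMIs and 176 of the 299 above 10% were CM4, a population described below in which these genes were high. In KO-Sham, 287 of the 1551 and 253 of the 1241 were CM4. The part of CM4 in these ratios was not tested.

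**Figure D2:**
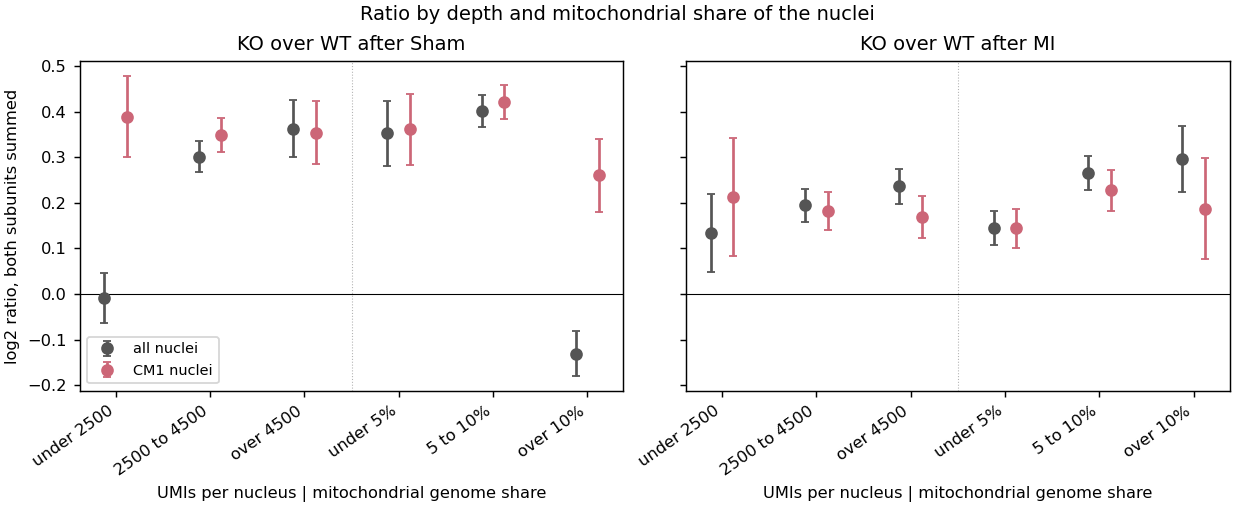
Log2 ratio of KO over WT for the 78 genes summed (vertical axis), after Sham (left) and after MI (right), in classes of UMIs per nucleus and of the percent of UMIs from the mitochondrial genome (horizontal axis), for all nuclei (grey) and CM1 nuclei (red), with 95% counting intervals. CM1 ratios are above 0 in every class, whereas all nuclei reach -0.01 and -0.13 in 2 classes after Sham.

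After MI the library labelled KO was again higher, by less. The log2 ratio of KO-MI over WT-MI was 0.21 (0.18 to 0.24) for the large and 0.20 (0.16 to 0.25) for the small subunit, which are 15.4% and 15.2%. These 2 libraries were alike in depth, with median UMIs per nucleus of 3951 and 3959, and in mitochondrial share, with medians of 5.37% and 5.29%. Of the 78 genes, 68 were above 0, with a median of 0.22, against a median of 0.03 and 55.3% above 0 over all 13678 genes. Intervals lay above 0 for 36 members (9.9% of all genes) and below 0 for 0 members (6.87% of all genes). Past the fold of 1.5 were 2 higher members (3.94% of all genes) and 0 lower ones (3.68% of all genes). The 2 became 8 with nuclei thinned to 1000 UMIs and 7 in nuclei with 5 to 10% mitochondrial UMIs. The share of all genes under these settings is not given here. In CM1 the ratio was 0.14 to 0.23 in the 6 classes of depth and mitochondrial share, with every interval above 0. The myeloid and red blood cell marker sums given above were lower in KO-MI than in WT-MI. Their part in the result was not tested.

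The 2 members past the fold were Mrpl37, with 14.6, 22.4, 12.4 and 19.97 CPM and a ratio of 0.68 (0.31 to 1.07), and Mrpl50, with 19.9, 19.1, 12.1 and 18.9 and a ratio of 0.65 (0.26 to 1.04). Mrpl37 was higher in both libraries labelled KO than in both labelled WT. Mrpl50 was low in WT-MI alone. Mrpl12, the stalk protein that recruits translation factors to the large subunit, stood at 89.1, 126.9, 80.1 and 114.1, so its ratio was 0.51 after Sham (0.35 to 0.67) and 0.51 after MI (0.36 to 0.66). Both libraries labelled KO again lay above both labelled WT. The lowest ratios after MI were those of Mrpl1 at -0.20 (-0.40 to 0.00), Mrpl41 at -0.13 (-0.40 to 0.14) and Mrps35 at -0.11 (-0.33 to 0.11), and no interval among them lay below 0.

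Side by side, 64 members were higher in the library labelled KO after both surgeries, where 26.0% of 12977 genes were, and 24 members had both intervals above 0, where 4.31% of genes did. The 2 comparisons share no library. Among the most counted small subunit members, Mrps24 stood at 78.4, 112.0, 56.1 and 74.7 CPM, with ratios of 0.51 (0.34 to 0.69) and 0.41 (0.23 to 0.60). Mrps28, the member with the longest gene, varied little among libraries at 116.2, 123.5, 120.3 and 120.8, with ratios of 0.09 (-0.06 to 0.24) and 0.01 (-0.13 to 0.14). Its gene spans 121773 bp and is overlapped by Gm15466 on the same strand. Other most counted members had these values. Mrps21 stood at 100.9, 137.7, 72.4 and 83.3 and Mrps36, whose protein is now known as part of the 2-oxoglutarate dehydrogenase complex, at 90.1, 129.4, 73.2 and 86.4. Both had KO-Sham as the high and WT-MI as the low library. Mrpl33 stood at 101.5, 139.1, 101.4 and 107.7, with KO-Sham high and the other 3 libraries close together. Mrpl52 stood at 88.9, 122.4, 97.8 and 113.9, with KO-Sham high but WT-Sham as the low library. At the low end of the counts, Mrps2 stood at 6.42, 8.89, 7.29 and 9.65, and Mrpl44, which is linked to cardiomyopathy in humans, at 10.2, 12.1, 7.67 and 8.42. Mrpl19 was among the highest ratios of MI over Sham in WT, at 17.5, 21.2, 22.2 and 22.7, a ratio of 0.35 (-0.03 to 0.74), whose interval includes 0.

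Both subunits were lower in the MI library than in the Sham library of the same genotype. In WT the log2 ratio of MI over Sham was -0.24 (-0.28 to -0.21) for the large and -0.22 (-0.27 to -0.18) for the small subunit. In KO it was -0.46 (-0.48 to -0.43) and -0.33 (-0.36 to -0.29). Since these comparisons share libraries with the KO over WT ones, they are a second reading of the same 4 sums. In WT the median over members was -0.22 against -0.07 over 13415 genes, and intervals lay below 0 for 32 members (24.3% of all genes) and above 0 for 3 (18.3% of all genes). Past the fold were 7 lower (15.9% of all genes) and 1 higher (12.5% of all genes). The 7 lower members became 17 with thinned nuclei, 4 without members that overlap another gene and 3 in CM1, so the count is not firm. In KO the median was -0.38 against 0.04 over 13806 genes, intervals lay below 0 for 54 members (19.7% of all genes) and above 0 for 3 (25.7% of all genes), and 19 were past the fold lower (12.5% of all genes) and 1 higher (14.1% of all genes). The 19 became 8 in nuclei of 2500 to 4500 UMIs and 11 in nuclei with 5 to 10% mitochondrial UMIs. For these settings too, the share of all genes is not given here. The myeloid marker sum was higher after MI, by 2.23 in WT and 1.59 in KO on the log2 scale, and the nuclear long RNAs by 0.42 and 0.45, and KO-Sham was the shallow library with the high mitochondrial share. The part of these measures in the result was not tested. Within CM1, WT-MI was lower than WT-Sham by only 0.12 on the log2 scale for both subunits summed (-0.15 to -0.09), and KO-MI was at -0.42 (-0.44 to -0.39) against KO-Sham.

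Intervals lay below 0 in both genotypes for 28 members, where the share of all genes in both together is not given here. In the single comparisons that share was 24.3% in WT and 19.7% in KO. Mrpl14, a large subunit protein at the face that meets the small subunit, had the lowest ratio in WT, with 63.4, 89.6, 33.1 and 45.7 CPM and ratios of -0.94 (-1.18 to -0.70) in WT and -0.97 (-1.16 to -0.79) in KO. Both MI libraries lay below both Sham libraries. The gene overlaps Tmem63b. Mrpl34, with no overlapping gene, stood at 70.0, 104.0, 39.0 and 47.7, ratios of -0.85 (-1.07 to -0.62) and -1.12 (-1.31 to -0.95), again with no overlap between surgeries. Mrpl42 showed the same order at 197.6, 238.1, 128.3 and 153.1, with ratios of -0.62 (-0.75 to -0.50) and -0.64 (-0.74 to -0.53). Mrps33, a small subunit protein without a bacterial counterpart, stood at 95.9, 115.4, 58.8 and 70.4, with ratios of -0.71 (-0.89 to -0.52) and -0.71 (-0.87 to -0.56). For Mrpl42 and Mrps33 too, both MI libraries were below both Sham libraries. Mrpl28 and Mrpl41 had ratios of -1.27 (-1.49 to -1.05) and -1.11 (-1.35 to -0.88) in KO and of -0.56 (-0.84 to -0.28) and -0.58 (-0.85 to -0.32) in WT, and the difference between genotypes was not tested.

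Mrps18b was the exception and the single member whose interval lay above 0 in both genotypes. It is one of 3 genes of the Mrps18 family, which encode related proteins at different places of the ribosome, and it stood at 19.5, 23.8, 32.4 and 36.8 CPM, with ratios of 0.74 (0.39 to 1.09) in WT and 0.63 (0.36 to 0.89) in KO. Both MI libraries lay above both Sham libraries. Over all genes, 18.3% in WT and 25.7% in KO had an interval above 0, and the share in both together is not given here. The other family members, named after their values were seen, had other ratios, as Mrps18a had ratios of -0.05 and 0.11 and Mrps18c of -0.24 and -0.49. Mrps18b lies head to head with Ppp1r10 and is overlapped by Gm16279 on the other strand. Mrpl38 was higher after MI in KO at 0.42 (0.20 to 0.65) but not in WT at -0.06 (-0.33 to 0.22), and the difference between genotypes was not tested.

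**Figure D3:**
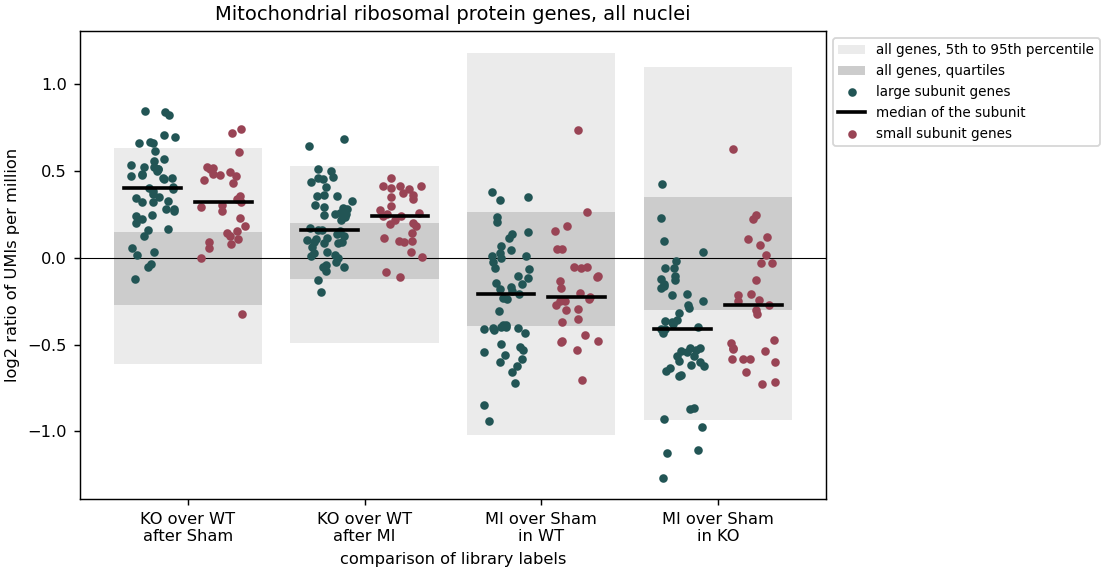
Log2 ratio of CPM over all nuclei (vertical axis) for each large and small subunit gene (points) in the 4 comparisons (horizontal axis), with the median of each subunit (black bar) and the quartiles and 5th to 95th percentiles of all genes with 20 or more UMIs (grey). The medians of KO over WT after Sham are 0.40 and 0.32, above the upper quartile of all genes, and Mrps18b is the high point in both MI comparisons.

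CM4, which the study describes as the regenerative population, held the highest levels of these genes in every library. The large subunit summed to 4999, 4416, 3641 and 4990 CPM in CM4, against 2075, 3003, 1902 and 2159 in CM1. The small subunit summed to 2503, 2298, 1820 and 2534 in CM4 and to 1262, 1649, 1171 and 1321 in CM1. For the large subunit, all 4 CM4 values lay above all values of the other 3 populations, and the CM4 values of WT-Sham and KO-MI could not be told apart while the others were separated by their intervals. CM2, which the study ties to the cell cycle, and CM5, which it ties to injury, lay near CM1, with large subunit sums of 1964, 2642, 1841 and 2154 in CM2 and 2395, 3138, 1746 and 2027 in CM5. Their intervals overlapped those of CM1 in the same library except for CM2 in KO-Sham and for CM5 in all but KO-Sham. CM2 rested on 27 to 124 nuclei per library, and in WT-MI its red blood cell markers summed to 18447 CPM against 1051 to 1892 in the other libraries, whose part in the result was not tested.

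CM4 nuclei also differed from the rest in depth, mitochondrial share and markers of other cell types. Their median was 1716 to 2394 UMIs and 9.47% to 14.6% mitochondrial UMIs, and the summed level of 4 nuclear long RNAs was 24434, 54324, 59986 and 39407 CPM in CM4 against 99436, 91296, 124392 and 123135 in CM1. The endothelial markers summed to 1583 to 1659 CPM in CM4 against 450 to 820 in CM1, and the fibroblast markers to 1966 to 2460 against 895 to 1047. The red blood cell markers summed to 12805, 7833, 8411 and 3538 in CM4 against 1891 to 3829 in CM1, and so also differed between the CM4 libraries. The part of these markers in the CM4 level was not tested. Respiratory chain genes and cytosolic ribosomal proteins were higher in CM4 as well, at 51228 to 93065 and 56546 to 84124 CPM against 22681 to 52653 and 22406 to 32794 in CM1. Among nuclei under 2500 UMIs, the 78 genes summed to 7280, 6407, 5590 and 6533 in CM4 and to 4086, 5349, 3816 and 4422 in CM1. CM4 was the higher of the pair in each library in this wide class.

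**Figure D4:**
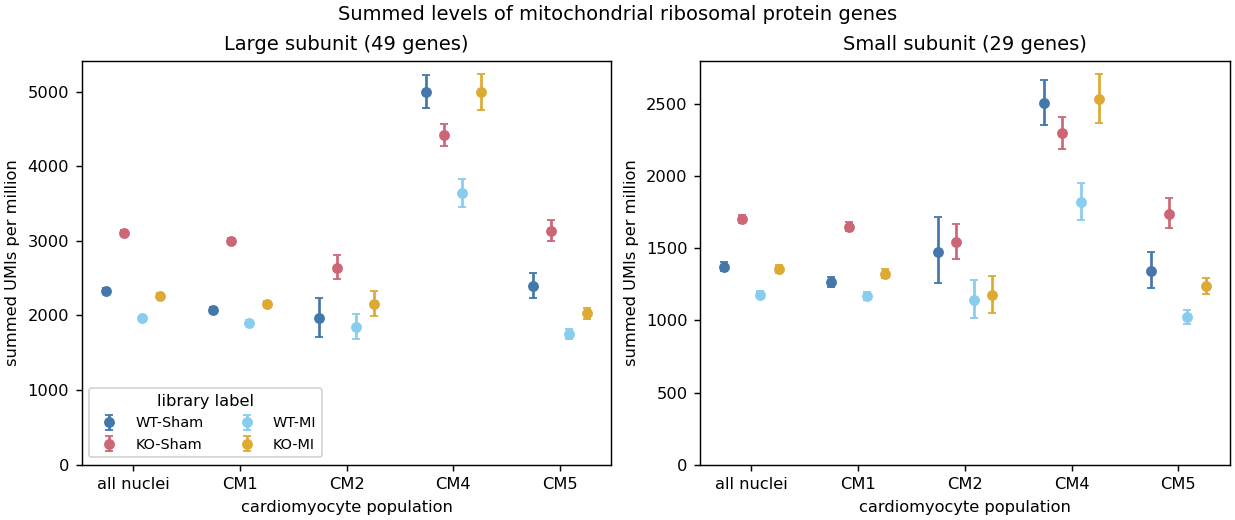
Summed CPM of the large (left) and small (right) subunit genes (vertical axes, from 0) in all nuclei and in each cardiomyocyte population (horizontal axis) of the 4 libraries (colours), with 95% Poisson intervals. CM4 stands above the other populations in every library, and WT-MI is the lowest of its 4 values.

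Within CM4 the order of the libraries was another one, with WT-MI the low library. KO-Sham was below WT-Sham, at -0.18 (-0.26 to -0.10) for the large and -0.12 (-0.24 to -0.01) for the small subunit, where the other populations gave 0.39 to 0.53 for the large subunit and 0.07 to 0.39 for the small one. The lowest of these, 0.07 (-0.18 to 0.32) in CM2, has an interval that overlaps that of CM4. KO-MI was above WT-MI by 0.45 (0.35 to 0.56) and 0.48 (0.34 to 0.62). MI over Sham was -0.46 (-0.55 to -0.36) and -0.46 (-0.60 to -0.32) in WT and 0.18 (0.09 to 0.26) and 0.14 (0.02 to 0.26) in KO. With TMM scaling the WT values were -0.60 and -0.60. With nuclei thinned to 1000 UMIs, KO-Sham over WT-Sham was -0.08 and -0.07, and MI over Sham in KO was 0.15 and 0.01. Of the members with 20 or more UMIs, 25 of 77 were above 0 in KO-Sham over WT-Sham, where 54.1% of all genes were, and 60 of 74 in KO-MI over WT-MI, where 45.7% were. Their medians were -0.13 and 0.40, against 0.06 and -0.08 over all genes. The share of mitochondrial UMIs in CM4 ran from a median of 9.47% in KO-MI and 10.8% in WT-MI to 11.6% in KO-Sham and 14.6% in WT-Sham. Among CM4 nuclei above 10% the ratio for both subunits was -0.13 (-0.21 to -0.06) for KO-Sham over WT-Sham and 0.46 (0.35 to 0.57) for KO-MI over WT-MI. By depth, KO-Sham over WT-Sham in CM4 was -0.18 (-0.27 to -0.10) under 2500 UMIs and -0.12 (-0.25 to 0.01) at 2500 to 4500. KO-MI over WT-MI was 0.22 (0.09 to 0.36) and 0.54 (0.40 to 0.68) in these classes, and MI over Sham in WT was -0.38 (-0.49 to -0.28) and -0.62 (-0.77 to -0.48). MI over Sham in KO was 0.03 (-0.09 to 0.14) and 0.03 (-0.10 to 0.16), so the higher KO-MI level against KO-Sham was not seen within these classes. Above 4500 UMIs KO-MI stood at 8522 CPM (7999 to 9071) from 21 nuclei. KO-Sham stood there at 7581 CPM (6811 to 8415) from 9 nuclei, with overlapping intervals. By mitochondrial share the higher KO-MI level was seen, at 0.17 (0.06 to 0.28) for 5 to 10% and 0.20 (0.11 to 0.30) above 10%.

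Mrpl14, which was among the genes to be named because earlier results of these data name it, was looked at in CM4. It stood at 159.3, 124.6, 40.3 and 128.0 CPM, from 63, 91, 17 and 44 UMIs. WT-MI was far below the other 3 libraries, and the 44 UMIs of KO-MI came from 36 nuclei with at most 2 in any nucleus. Mrpl42, one of the most counted members, had 457.7, 339.5, 213.6 and 337.5 CPM, with ratios of 0.66 (0.25 to 1.07) for KO-MI over WT-MI and -1.10 (-1.48 to -0.73) for MI over Sham in WT. Its KO-Sham and KO-MI values were nearly the same and lay between those of the libraries labelled WT. Mrpl12 stood at 260.4, 204.0, 204.1 and 337.5 in CM4, so here KO-MI was the high library instead. Mrps18b stood at 25.3 and 35.6 in the Sham libraries of CM4 and at 57.0 and 72.7 in the MI libraries. These levels rest on few UMIs, and no interval is given for them here. In CM4, Nfe2l1 rested on 22, 30, 26 and 11 UMIs, too few to place the libraries. Its levels there were 55.6, 41.1, 61.7 and 32.0 CPM, with overlapping intervals. In WT-MI and KO-MI it stood at 44.1 and 57.7 CPM in CM1, 54.4 and 31.0 in CM2, and 54.8 and 57.0 in CM5. The order of Nfe2l1 after MI thus differed between populations.

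Members of older and newer evolutionary origin were set apart as another description. The 46 with a counterpart in bacterial ribosomes had a summed log2 ratio of 0.39 (0.36 to 0.42) for KO-Sham over WT-Sham and the 32 without one 0.36 (0.32 to 0.40). For KO-MI over WT-MI the values were 0.19 (0.16 to 0.22) and 0.24 (0.19 to 0.28), for MI over Sham in WT -0.21 (-0.24 to -0.17) and -0.28 (-0.32 to -0.23), and in KO -0.41 (-0.44 to -0.38) and -0.41 (-0.44 to -0.37). The intervals overlapped each time, and the differences between the classes were not tested.

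The ratios moved with gene length, both for the members and for genes at large. The rank correlation of the log2 ratio with gene length over the 78 members was -0.31 for KO-Sham over WT-Sham and -0.27 for KO-MI over WT-MI, and -0.34 and -0.20 over 11914 and 12212 protein-coding genes, all values being from the same libraries. In KO-Sham over WT-Sham the 26 members under 5 kb had a median of 0.47, against 0.29 over 1111 genes of that length. The 41 members of 5 to 20 kb had 0.33 against 0.01 over 3669 genes, and the 11 longer ones 0.18 against -0.15 over 7134. After MI the medians were 0.28 against 0.16, 0.24 against 0.09 and 0.01 against -0.01 in the 3 classes. The members thus stood above genes of like length in all 3 classes after Sham, by less than against all genes, and the longest class did not stand apart after MI. For MI over Sham the rank correlation with length over the members was 0.36 in WT and 0.33 in KO, against 0.08 and 0.20 over 11997 and 12264 protein-coding genes. The members' medians from the shortest to the longest class were -0.29, -0.23 and 0.01 in WT and -0.55, -0.36 and -0.22 in KO. Over all genes of these lengths they were -0.16, -0.10 and -0.02 in WT and -0.26, -0.02 and 0.11 in KO. In WT, 6 of the 11 longest members were above 0, near the 47.8% of 7197 genes of that class. The part of gene length in the result was not tested.

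Among other genes of mitochondrial translation, the ribosomal proteins with other names had intervals on the members' side of 0 in all 4 comparisons, while those of translation and assembly factors included 0 for KO over WT. In KO-Sham over WT-Sham, against which the counts of this paragraph and the next are read, 9.36% of all genes had an interval above 0 and 19.4% below 0. Of the 5 mitoribosomal proteins with other names, 3 had an interval above 0, and their sum stood at 231, 289, 211 and 243 CPM, a ratio of 0.32 (0.22 to 0.42). Their other ratios were 0.20 (0.10 to 0.30) for KO-MI over WT-MI, and -0.13 (-0.24 to -0.02) in WT and -0.25 (-0.34 to -0.17) in KO for MI over Sham. Aurkaip1 had the highest ratio at 0.60, while Ptcd3, a pentatricopeptide protein of the small subunit, stood at -0.08. The 12 translation factors summed to 465, 475, 430 and 438 and the 20 assembly factors to 411, 415, 370 and 372, with ratios of 0.03 (-0.04 to 0.10) and 0.02 (-0.06 to 0.09) for KO-Sham over WT-Sham. For MI over Sham their ratios were -0.11 and -0.15 in WT and -0.12 and -0.16 in KO, with every interval below 0. Among them Tufm, the elongation factor that brings transfer RNAs to the ribosome, had 30.5, 39.97, 23.0 and 26.4 CPM, and Mtif2, the initiation factor, 108.5, 106.8, 108.2 and 101.1. Tufm followed the order of the ribosomal proteins and Mtif2 did not. Of the 22 mitochondrial aminoacyl-tRNA synthetases and related enzymes, which load amino acids onto transfer RNAs, 0 had an interval above 0 and 4 below, the latter near the share of all genes, and their sum was 755, 703, 751 and 752, with Fars2 the most counted at 195.8, 178.6, 163.4 and 167.3. Of 8 genes of mitochondrial transcription and messenger RNA stability, 2 had an interval above 0, among them Slirp at 31.9, 45.7, 36.8 and 40.5, while its partner Lrpprc stood at 95.5, 98.1, 119.4 and 111.7.

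Regulators of mitochondrial biogenesis were not higher in KO-Sham. Their 9 genes summed to 1425, 1302, 1406 and 1356 CPM, with 0 intervals above 0 and 4 below, where all genes gave 9.36% and 19.4%. Nuclear respiratory factor 1 itself (Nrf1) stood at 80.2, 83.9, 89.2 and 90.8, close in all 4 libraries. Ppargc1a, the coactivator PGC-1 alpha, was lower after MI at 589, 552, 425 and 417, and Ppargc1b higher at 480, 415, 602 and 565. Pprc1, a related coactivator, stood at 11.4, 11.9, 30.0 and 33.4 and Myc, a growth regulator, at 2.0, 2.1, 6.5 and 5.0, both higher after MI in both genotypes, opposite to the ribosomal proteins.

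The members were also set beside the lists of the proteins they help to make and of the cytosolic ribosome. The 84 genes for nuclear-encoded respiratory chain or ATP synthase subunits had summed ratios of 0.65, 0.27, -0.58 and -0.95 for KO over WT after Sham, after MI, and MI over Sham in WT and KO. The 82 cytosolic ribosomal protein genes gave 0.39, 0.18, 0.10 and -0.11. The 13 genes of the mitochondrial genome, whose messages the members translate, gave 0.36, -0.05, -0.26 and -0.67. Mitochondrial ribosomal proteins thus had a smaller ratio than respiratory chain genes in each comparison, shared the direction of the respiratory list in all 4, and differed in sign from the mitochondrial genome after MI and from the cytosolic ribosome for MI over Sham in WT. In CM4 the respiratory list gave -0.15, 0.57, -0.86 and -0.14, so in MI over Sham in KO it was below 0 where both mitoribosomal subunits were above. No difference between lists was tested.

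**Figure D5:**
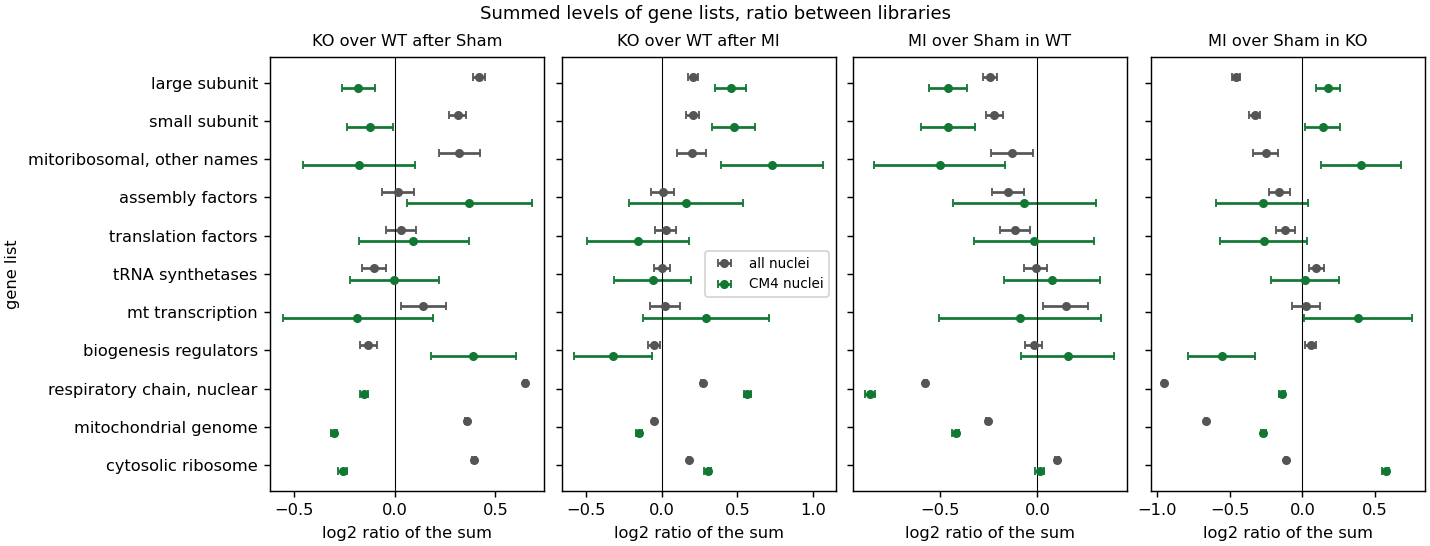
Log2 ratio of the summed CPM (horizontal axes) of each gene list (vertical axis) in the 4 comparisons, for all nuclei (grey) and CM4 nuclei (green), with 95% counting intervals. The subunits, the respiratory chain and the cytosolic ribosome are above 0 in all nuclei for KO over WT after Sham and below 0 in CM4, while translation and assembly factors lie at 0.03 and 0.02 in all nuclei.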

How the data were processed

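The deposited matrix held raw UMI counts per gene and nucleus, which the authors made with Cell Ranger (version not given in the sources used here) on a mm10 (GRCm38) pre-mRNA reference, so intronic reads are counted. They removed doublets with Scrublet, kept nuclei with 200 to 2500 genes and cardiomyocyte clusters only, and assigned populations with Seurat 3. The deposited total of UMIs equalled the sum of the counts in 100% of nuclei. The percent of mitochondrial UMIs was used as deposited. The kit is a 10x 3′ kit, version 2 in the labels and 3 in the methods. Tags of strain in the labels differ between libraries, and the protocol's C57BL/6 is used. Of the deposited columns, 10 were not used.

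Counts were summed per library and final population label and scaled to the total (CPM). Ratios are log2 ratios of these values with an exact conditional binomial (Clopper-Pearson) 95% interval, and levels carry exact Poisson intervals, for counting error only (Python 3.11.15, scipy 1.17.1). No test was run, since each group is 1 library. Genes entered the per-gene counts with at least 20 UMIs in the compared pair, and a fold of 1.5 was used. The interval was tested on drawn counts. Scaling alternatives used edgeR 4.0.16 (TMM) and DESeq2 1.42.0 (size factors), and others thinned nuclei to 1000 UMIs or restricted nuclei by depth (2500 to 4500 UMIs), mitochondrial share (5 to 10%) or population. Gene positions come from GENCODE and promoters from RefSeq, both GRCm38. The members and gene lists were chosen with earlier results of these data known. Genes named are the 5 most counted members of each subunit, the 3 highest and 3 lowest ratios of each comparison (100 or more UMIs), Mrpl14 and the members with the fewest UMIs, and per other list the most counted gene and the extremes. Classes of depth, mitochondrial share, gene length and bacterial counterpart were chosen after seeing the data.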

Additional observations from a re-analysis of the deposited data

Results flagged for a closer look

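In CM4 the direction of a comparison differed between surgeries and between genotypes. For the large subunit KO over WT was -0.18 after Sham and 0.45 after MI, and MI over Sham was -0.46 in WT and 0.18 in KO. For the small subunit the same 4 log2 ratios were -0.12, 0.48, -0.46 and 0.14. These are 4 readings of 4 sums, and with 1 library per group the difference was not tested. For both subunits summed, MI over Sham in KO was 0.03 (-0.09 to 0.14) among CM4 nuclei under 2500 UMIs and 0.03 (-0.10 to 0.16) at 2500 to 4500. The opposite direction in KO was not seen within these depth classes. Above 4500 UMIs KO-MI stood at 8522 CPM (7999 to 9071) from 21 nuclei and KO-Sham at 7581 (6811 to 8415) from 9. By mitochondrial share the opposite direction was seen, at 0.17 (0.06 to 0.28) for 5 to 10% and 0.20 (0.11 to 0.30) above 10%. CM4 held 118 to 351 nuclei per library.

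Over all nuclei, Mrpl20 was higher after MI in WT at 0.24 and lower in KO at -0.21, and Mrpl35 was at 0.38 in WT and -0.38 in KO, each with intervals on opposite sides of 0. Both genes were lowest in WT-Sham and highest in KO-Sham. These differences were not tested either.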

How the results depend on the processing

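The 4 ratios of each subunit over all nuclei kept their direction under the alternatives listed here, but their size moved. In classes of nuclei, both subunits summed, KO over WT after Sham was -0.01 under 2500 UMIs and -0.13 above 10% mitochondrial UMIs. Values are log2 ratios, main first. For KO over WT after Sham the large subunit (0.42) was 0.51 with TMM scaling, 0.49 with DESeq2 size factors, 0.35 as the mean CPM of single nuclei, 0.34 in nuclei of 2500 to 4500 UMIs and 0.53 in CM1, and the small subunit (0.31) was 0.40, 0.39, 0.26, 0.24 and 0.39 under the same 5 and 0.36 without members that overlap another gene. For KO over WT after MI the large subunit (0.21) was 0.17 with DESeq2 size factors and 0.29 in nuclei with 5 to 10% mitochondrial UMIs. For MI over Sham in WT the large subunit (-0.24) was -0.18 with TMM, -0.18 with DESeq2, -0.17 in nuclei of 2500 to 4500 UMIs, -0.14 at 5 to 10% mitochondrial UMIs, -0.13 in CM1 and -0.30 without overlapping members, and the small subunit (-0.22) was -0.16, -0.16, -0.15, -0.11, -0.11 and -0.34 under the same 6 and -0.28 with nuclei thinned to 1000 UMIs. For MI over Sham in KO the large subunit (-0.46) was -0.51 with TMM, -0.51 with DESeq2, -0.31 in nuclei of 2500 to 4500 UMIs, -0.29 at 5 to 10% and -0.52 without overlapping members, and the small subunit (-0.33) was -0.38, -0.38, -0.18, -0.23 and -0.48. Counts of members past the fold moved too, and the share of all genes past it under each setting is not given here. For KO over WT after Sham the 12 higher became 23 (TMM), 22 (DESeq2), 27 (CM1) and 20 (5 to 10%), and after MI the 2 higher became 8 (thinned) and 7 (5 to 10%). For MI over Sham in WT the 1 higher became 3 (thinned) and 0 (without overlapping members), and the 7 lower became 17 (thinned), 4 (without overlapping members) and 3 (CM1). In KO the 1 higher became 0 (TMM), 0 (DESeq2), 0 (without overlapping members) and 0 (CM1), and the 19 lower became 8 (2500 to 4500 UMIs) and 11 (5 to 10%). Fewer nuclei or members enter the thinned, restricted and overlap settings. For the others the cause was not tested. Among named members, the ratio changed sign for Mrpl12 (MI over Sham in KO, 0.15 at 5 to 10%) and Mrpl34 (KO over WT after MI, -0.013 when thinned). The restrictions by depth and mitochondrial share were chosen after seeing the data. No paired analysis was possible because each group is 1 library with no replicate number. With 1 library per group, no difference between animals, pools or library preparations can be told apart from the labels.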
